A study of Homo sapiens with 2 samples.

Results

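The 10 genes described here, MYOF, CRIM1, ASAP1, DOCK5, NT5E, F3, AXL, NUAK2, CCDC80 and GADD45A, are genes long used as readouts of YAP activity. They were taken as 10 fixed hg19 windows, 1 around each gene, and the members are the peaks whose summit lies in a window: 39 of the 9393 peaks of the list. The study profiled MCF10A, a human mammary epithelial line that one label calls non-transformed and another a breast cancer line, carrying Flag-YAP-5SA, a YAP mutant that resists inhibition by the Hippo kinases LATS1 and LATS2. Chromatin bound by the tagged protein was collected with a Flag-M2 antibody from 1 ChIP library, with 1 library of input DNA beside it. The sources used here do not say which promoter drives Flag-YAP-5SA or whether the line is 1 clone, and no library from cells without the tagged protein was analysed here. There is no replicate, the read depth is unknown, and no p-value is given.

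YAP has no DNA-binding domain of its own. It reaches chromatin mainly through TEAD transcription factors, often together with AP-1 factors, and in epithelial cells much of this binding is at enhancers away from promoters. When Hippo signalling is low, YAP enters the nucleus and genes for adhesion, cytoskeleton, matrix and survival are transcribed. A peak in a gene's window is a site of Flag-YAP-5SA enrichment near that gene, and the data hold no expression values that would tie it to the gene.

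All 10 windows held at least 1 summit, from 1 at GADD45A to 8 at CRIM1. Among non-overlapping tiles of 100 kb, the length of the shortest window, GADD45A, 6831 of 29140 held at least 1 summit. At 500 kb, the length of the longest, ASAP1, it was 3813 of 5847. The windows measured 2.18 Mb together and held 17.9 summits per Mb (exact Poisson 95% interval 12.7 to 24.5, counting error only), against 3.45 per Mb over the whole list, a ratio of 5.18. The list's density covers nearly whole chromosomes, and windows around other genes were not counted. Whether the ratio is particular to these 10 genes was therefore not tested. The peaks were numerous but not taller on the whole. The height, a whole-number score of the authors whose unit is not stated, had a median of 23 in the windows (95% order-statistic interval 18 to 30) and of 24 over the list. Of the 39 peaks, 17 (43.6%) were higher than the list's median, beside 45.5% of all peaks. A small tall fraction stood beside many low peaks: 7 of 39, or 17.9% (exact binomial 95% interval 7.54 to 33.5), reached a height of 40, against 8.67% of all peaks, which lies inside that interval. These 7 peaks were in 6 windows, at MYOF, CRIM1, NT5E, AXL, NUAK2 and CCDC80.

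**Figure D1:**
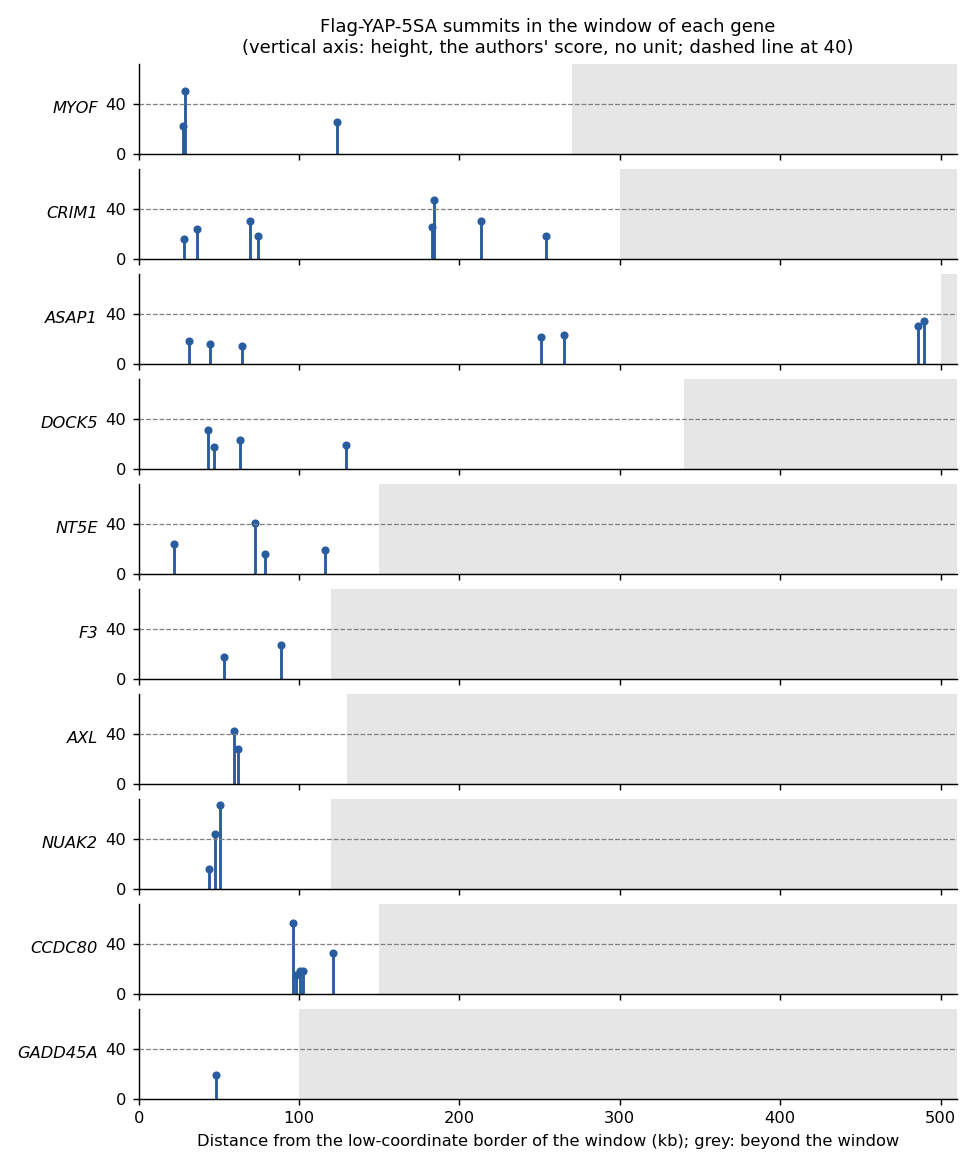
Summits of Flag-YAP-5SA peaks in the 10 gene windows. The horizontal axis is the distance in kb from the window's low-coordinate border, each stem is 1 summit and its length is the height (authors' score, no unit), the dashed line marks 40 and grey lies beyond the window. Summits at AXL, NUAK2 and CCDC80 sit close together, while those at CRIM1 and ASAP1 are spread over 226 and 458 kb.

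The DNA under the peaks was not read, because no genome of the hg19 build was used here. Promoters were instead taken from RefSeq on GRCh38.p14, where 6 of the 10 genes matched with 7 promoters, 2 of them for AXL. CRIM1, ASAP1, DOCK5 and GADD45A did not match. Each promoter, 250 bases before the start site and 50 after it, was searched on both strands for CATTCC, the core letters of a TEAD site, and for TGANTCA, those of an AP-1 site. CATTCC was found for 2 of the 6 genes, NUAK2 and AXL, beside 14.0% of the 35116 promoters in the table. TGANTCA was found for F3, beside 7.71%. These are unlike measures: the counts are of genes, a match in either AXL promoter sufficing, and the shares are of promoters. The 3 promoters with a match are shown to give the place of these letters in their sequence; only the bases before the start site are printed, and each match is in capitals. They lie on another build than the peaks, so whether a peak overlaps them was not tested, and a match is a description, not a bound site.
NUAK2 promoter, GRCh38.p14 chr1:205321746-205321995, minus strand: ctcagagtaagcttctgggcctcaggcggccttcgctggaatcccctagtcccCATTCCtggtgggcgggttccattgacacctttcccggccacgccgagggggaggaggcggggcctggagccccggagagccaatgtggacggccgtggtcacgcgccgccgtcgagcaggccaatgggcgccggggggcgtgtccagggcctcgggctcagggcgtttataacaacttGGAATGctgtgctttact
AXL second promoter, GRCh38.p14 chr19:41226505-41226754, plus strand: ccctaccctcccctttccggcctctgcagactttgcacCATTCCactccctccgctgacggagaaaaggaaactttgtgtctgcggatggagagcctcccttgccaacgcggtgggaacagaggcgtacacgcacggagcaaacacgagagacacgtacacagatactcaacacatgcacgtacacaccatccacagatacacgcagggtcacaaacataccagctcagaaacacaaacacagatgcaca
F3 promoter, GRCh38.p14 chr1:94541760-94542009, minus strand: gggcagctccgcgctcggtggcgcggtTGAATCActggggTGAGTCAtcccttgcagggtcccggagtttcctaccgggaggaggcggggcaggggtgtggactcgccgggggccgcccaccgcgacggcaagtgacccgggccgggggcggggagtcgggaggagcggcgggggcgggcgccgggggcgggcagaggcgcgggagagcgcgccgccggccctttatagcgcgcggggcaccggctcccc
The NUAK2 promoter holds the TEAD letters at 2 places, beginning 197 and 18 bases before the start site, once as CATTCC and once as its reverse complement GGAATG. That of AXL holds CATTCC once, beginning 212 bases before the start. In F3 the AP-1 letters begin 223 and 210 bases before the start, and no CATTCC was found in that stretch. The promoters of MYOF, NT5E and CCDC80, and the first promoter of AXL, held neither motif.

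Among the genes for surface proteins, AXL encodes a receptor tyrosine kinase bound by GAS6 that promotes survival and invasion. Its window on chromosome 19, from 41.67 to 41.80 Mb, held 2 summits, 2176 bp apart. The first peak, of height 42, spanned 41729250 to 41729922. The second, from 41731388 to 41732455, had a height of 28 and was wide for the list, at 1068 bp, a width that 3.70% of all peaks reach. Both AXL peaks were thus above the list's median height, and the rest of the window was empty. Non-overlapping tiles of the window's length, 130 kb, held as many summits in 8.84% of cases. The protein-coding neighbours of AXL in RefSeq order are CYP2S1 and HNRNPUL1, and a peak of this or any window may belong to a neighbour.

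NT5E encodes CD73, the surface enzyme that turns AMP into adenosine. Between 86.11 and 86.26 Mb on chromosome 6, the NT5E window held 4 summits with heights of 24, 41, 16 and 19 in order of position. The tallest, from 86182258 to 86183089, had its nearest summit 6240 bp away, at the peak of height 16. A single tall peak therefore stood among peaks at or below the list's median height of 24, and 1 of the 4 was above it. As many summits were found in 1.23% of tiles of 150 kb.

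F3 encodes tissue factor, the membrane protein that starts the clotting cascade. On chromosome 1, the F3 window from 94.94 to 95.06 Mb held 2 summits 35.3 kb apart, with heights of 17 and 27. Neither was tall: 88.5% of all peaks reach the first height and 36.8% the second. The peaks ran from 94992967 to 94993690 and from 95028258 to 95028978. Of 120 kb tiles, 7.99% held as many.

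CRIM1 encodes a transmembrane protein with cysteine-rich repeats that binds bone morphogenetic proteins. Its window on chromosome 2, from 36.53 to 36.83 Mb, held the largest number of summits of the 10 windows, 8, with heights of 16, 24, 30, 18, 25, 47, 30 and 18 in order of position. Only 0.350% of tiles of 300 kb held as many. Most of the CRIM1 peaks came in pairs: 6 of the 8 formed 3 pairs, with summits 7760, 5184 and 1184 bp apart. In the closest pair, the peak of height 25 ended 501 bases before the tallest peak of the window, which ran from 36713564 to 36714324 with a height of 47. The 2 single peaks of CRIM1, at the high-coordinate end, had heights of 30 and 18, and 4 of the 8 peaks were above the list's median.

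MYOF encodes myoferlin, a ferlin that acts in the fusion and repair of the plasma membrane. From 95.02 to 95.29 Mb on chromosome 10, its window held 3 summits with heights of 22, 50 and 25. The 2 summits nearest the low-coordinate border were 1168 bp apart, and 693 bases separated their intervals. The tall one ran from 95048585 to 95049287, and 2.81% of all peaks are as tall. The third summit lay 95040 bp further, and the 146 kb from there to the far border held none. MYOF thus had 1 tall peak and a long empty stretch, and 9.73% of 270 kb tiles held 3 or more summits. The gene is read from high to low coordinates, and its protein-coding neighbours in RefSeq order are CYP26A1 and CEP55.

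ASAP1 and DOCK5 act on small GTPases of the cytoskeleton: ASAP1 is an ARF GTPase-activating protein of focal adhesions and invadopodia, and DOCK5 is an exchange factor for Rac. The ASAP1 window, the longest of the 10, ran from 131.01 to 131.51 Mb on chromosome 8 and held 7 summits, with heights of 18, 16, 14, 21, 23, 30 and 34 in order of position. They fell into 3 sets, with empty stretches of 186224 and 220784 bp between them. The 3 peaks of the low-coordinate set were low, and 83.8% of all peaks are as tall as the highest of them. The 2 peaks of the last set, 3872 bp apart, were the only ones of ASAP1 above the list's median. The next summit, of height 41, was 0.112 kb beyond the border and so was not counted. The count of ASAP1 and its lack of a peak of 40 therefore rest on where the border lies. As many summits as in the window were found in 2.39% of 500 kb tiles.

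The DOCK5 window, from 24.99 to 25.33 Mb on chromosome 8, held 4 summits with heights of 31, 17, 23 and 19. All 4 lay in the low-coordinate part, within 86.3 kb, and the remaining 211 kb up to the far border were empty. The tallest, from 25032612 to 25033281, had a neighbour 4256 bp away that was lower but wider, at 905 against 670 bp. None was tall, and 6.97% of 340 kb tiles held as many.

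NUAK2 encodes a kinase of the AMPK-related family that acts on actomyosin contractility and is known to feed back on YAP. Its window on chromosome 1, from 205.22 to 205.34 Mb, held 3 summits within 6992 bp, with heights of 16, 44 and 67. The last of these, from 205270302 to 205270973, was the tallest of all 39 peaks, and 33 of the 9393 peaks (0.351%) are as tall. The middle peak, from 205267425 to 205268156, lay 2912 bp from it. The NUAK2 window was the only one of the 10 with 2 peaks of 40 or more inside it. At ASAP1, 2 peaks of height 41 lay just beyond the border. Of 120 kb tiles, 2.47% held 3 or more summits. The gene is read from high to low coordinates, between TMCC2 and KLHDC8A among protein-coding genes in RefSeq order.

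CCDC80 encodes a secreted protein of the extracellular matrix. Its window on chromosome 3, from 112.27 to 112.42 Mb, held 5 summits with heights of 57, 15, 18, 18 and 33, and it was the densest of the 10 at 33.3 per Mb. The first 4 summits lay within 6432 bp, with neighbours 2208, 2272 and 1952 bp apart. The tallest stood at the low-coordinate end of this group, from 112365551 to 112366478, and the other 3 were below the list's median height. The fifth peak, 18.3 kb further, was the widest of the 39 at 1297 bp, a width that 1.28% of all peaks reach. Of the 7 member peaks 900 bp or wider, 3 were at CCDC80. The 7 made up 17.9% (7.54 to 33.5) of the members against 8.45% of the list, which lies inside that interval. As many summits as at CCDC80 were found in 0.489% of 150 kb tiles.

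GADD45A encodes a small nuclear protein induced by DNA damage and other stress. The GADD45A window, from 68.10 to 68.20 Mb on chromosome 1, was the shortest and held 1 summit, of height 19. The peak was low but broad, running over 1235 bp from 68148227 to 68149461. It was the single window without a peak above the list's median, and 23.4% of 100 kb tiles hold at least 1 summit, so that the count at GADD45A says little beyond its being present. In RefSeq order, the protein-coding neighbours are SERBP1 and GNG12 for GADD45A, TBX18 and SNX14 for NT5E, ABCD3 and SLC44A3 for F3, and FAM98A and FEZ2 for CRIM1. They are CYRIB and ADCY8 for ASAP1, NEFL and GNRH1 for DOCK5, and SLC35A5 and CD200R1L for CCDC80.

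**Figure D2:**
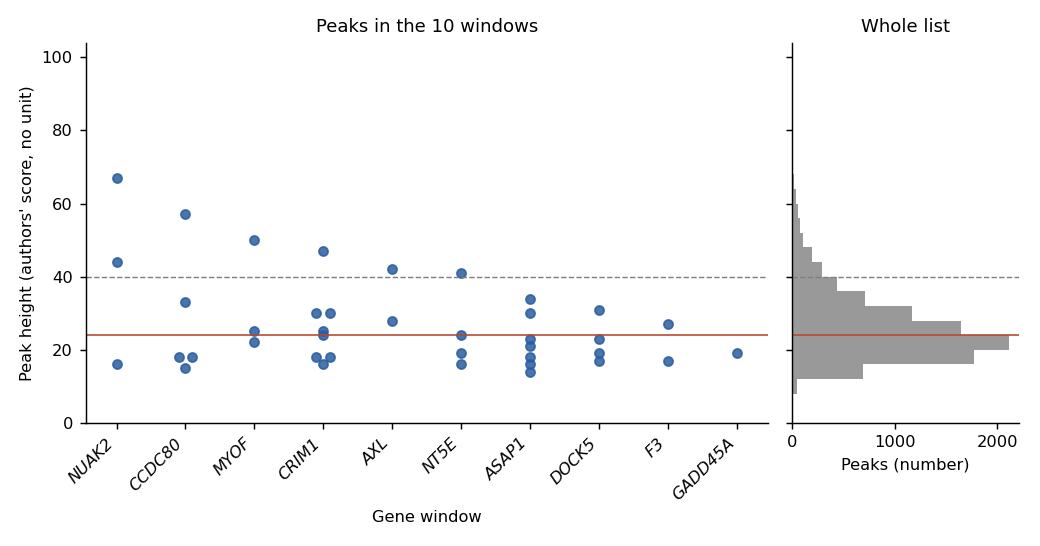
Heights of the 39 peaks by gene window, left, and of all 9393 peaks, right, on the same vertical axis (authors' score, no unit). Points are peaks, windows are ordered by their tallest peak, the red line is the list's median of 24 and the dashed line marks 40. Most points lie near the bulk of the list, with 1 or 2 peaks above 40 in each of 6 windows.

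Set side by side, the windows can be described by their tallest and lowest peaks. The tallest height depends on how many peaks a window holds and on where its borders lie, so the order below is a description only. The tallest heights ran from 67 at NUAK2, 57 at CCDC80, 50 at MYOF, 47 at CRIM1, 42 at AXL and 41 at NT5E to 34 at ASAP1, 31 at DOCK5, 27 at F3 and 19 at GADD45A. With 1 library these values have no error, so whether neighbours in this order differ, such as AXL and NT5E, was not tested. The lowest heights were between 14 and 19 in 8 of the windows, and 22 at MYOF and 28 at AXL. Median heights over the chromosomes that carry these genes were between 23 and 25, close to the list's 24.

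Densities were above those of the gene's own chromosome in all 10 windows, at 10.0 to 33.3 summits per Mb against 3.28 to 4.50 per Mb. In a short window 1 summit is enough for this: at GADD45A it gave 10.0 per Mb, against 4.50 for chromosome 1. For such windows the comparison adds little to the presence of a summit. For 5 windows, CRIM1, ASAP1, NT5E, NUAK2 and CCDC80, the exact Poisson interval lay above the 3.45 per Mb of the list. At DOCK5 it began at 3.21, and the intervals of MYOF, F3, AXL and GADD45A also reached below that value. All 10 intervals overlap each other, and no pair of densities was compared, so the order of the 10 densities is a description only. The tiles run from the first to the last summit of each chromosome and include stretches with no peak at all, which lowers their counts. Around the listed summits themselves, a window of CRIM1's length held 8 or more in 3.07% of cases, 1 of CCDC80's length held 5 or more in 5.98% and 1 of NUAK2's length held 3 or more in 23.3%. Such windows always hold at least 1 summit, so their shares exceed those of the tiles in part by construction. The same share was 12.8% for the count of ASAP1, 13.3% for that of NT5E and 32.4% for that of DOCK5. At MYOF, F3 and AXL that share was between 45.1 and 53.6%, so the counts there were common among places that already hold a peak.

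**Figure D3:**
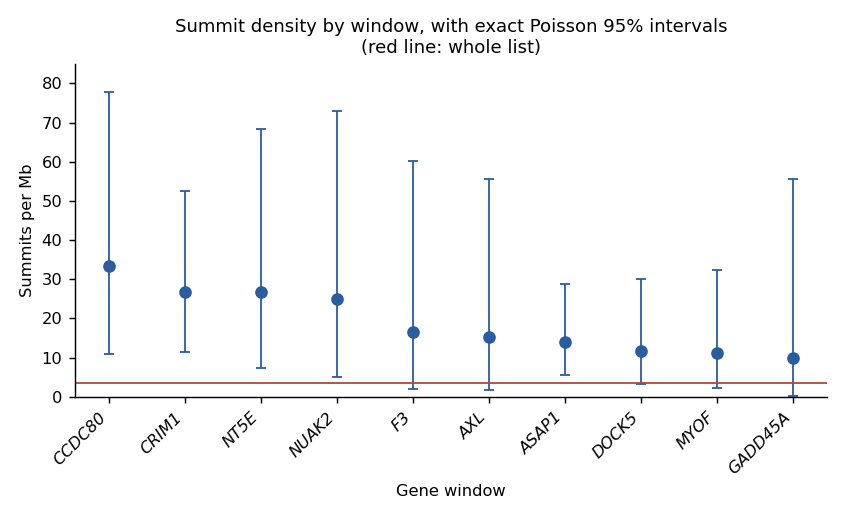
Summits per Mb in each gene window, ordered from the densest. Points are counts divided by window length, bars are exact Poisson 95% intervals (counting error only) and the red line is the 3.45 per Mb of the whole list; 5 of the bars lie wholly above the line, and all 10 overlap each other.

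Peaks near these genes lay close to one another. Another summit of the list was within 10 kb for 23 of the 39, or 59.0% (exact binomial 95% interval 42.1 to 74.4), against 19.5% of all peaks. Within 50 kb it was 35 of 39, or 89.7% (75.8 to 97.1), against 47.8%. The median distance to the nearest summit was 6.24 kb in the windows and 55.8 kb over the list. Spacing and density are not separate measures, since a dense window leaves its peaks near each other. The 23 peaks formed 10 groups in 8 windows, 3 of them at CRIM1, with spans of 1168 to 7760 bp, and F3 and GADD45A had none. All 7 tall peaks belonged to such groups, whereas 23.6% of the list's peaks of 40 or more had a summit within 10 kb. In 9 of the 10 groups, the tallest peak was at least 1.5 times as high as the lowest. The exception was the pair at ASAP1 with 30 and 34. The pairs at AXL, with 42 and 28, and at CRIM1, with 24 and 16, lie on that cutoff. This count was not made for close groups elsewhere in the list, so it describes these windows only. Whether 2 close summits are 1 region of enrichment listed in 2 pieces was not tested; the smallest gaps between intervals were 501 bases, in the pair at CRIM1, and 693 bases, in that at MYOF.

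**Figure D4:**
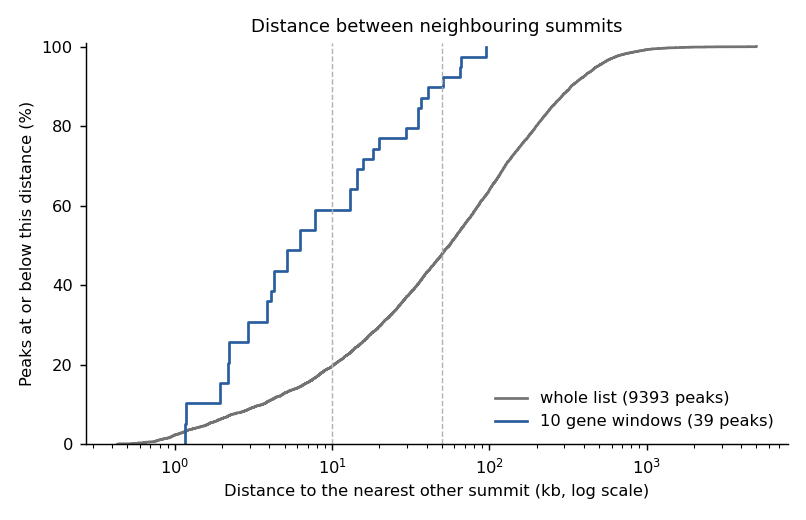
Share of peaks, in percent, whose nearest other summit in the list is at or below the distance on the horizontal axis (kb, log scale), for the 39 peaks in the 10 windows (blue) and all 9393 peaks (grey). Dashed lines mark 10 and 50 kb, where the blue curve stands at 59.0 and 89.7% and the grey one at 19.5 and 47.8%.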

How the data were processed

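The file deposited by the authors is a peak list from the ChIP library. BWA 0.6.1, MACS and the build hg19 are listed, without their roles, per the submitters' processing notes; the sources used here do not give the MACS version, a threshold or how the input was used. Each peak has 1 line in a summit track and 1 in an interval track, per the file headers. The summit line carries a whole-number score from the authors, called height in the text; heights were compared only between peaks of this list. Summit positions are printed as deposited (80.4% are multiples of 32 bp) and intervals 1-based. Summits and intervals were joined by order, and each summit lies in its interval.

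The members and lists were chosen with earlier results of these data known. All 10 genes and all their peaks are named, with their nearest protein-coding neighbours from RefSeq (GRCh38.p14), used for names and order only. List density is peaks over the span from first to last summit of each chromosome less its longest peak-free stretch. Intervals are at the 95% level and cover counting error within this list, where peaks are not independent. Functions were tested on simulated data. Python 3.11.15, numpy 2.4.6, pandas 2.3.3 and scipy 1.17.1 were used.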

Additional observations from a re-analysis of the deposited data

How the results depend on the processing

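No paired analysis was possible because each group has 1 library, so no replicate was left out. Restricting the list to peaks higher than its median left 17 of the 39 summits, by construction. The share of peaks with a neighbour fell from 89.7 to 59.0% when the distance was 10 kb in place of 50 kb, also by construction. With ACATTCC in place of CATTCC, 0 member genes had a match in place of 2. With borders 20 kb inwards or 50 kb outwards, the windows held 37 or 51 summits at 20.8 or 16.0 per Mb, and 40 when any overlap of the interval counted. Leaving out each window in turn gave 16.5 to 19.0 summits per Mb, a median height of 23 to 24, 13.9 to 21.9% of peaks at 40 or more, lowest without NUAK2, and 54.8 to 65.6% with a summit within 10 kb; these last shares, and the comparisons with windows around listed summits, were added after seeing the data. At a height of 30 the members' share was 33.3%, against 26.6% of the list. The single library and the unknown depth limit all values.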

Other observations

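Beyond the window borders, 5 of the 10 genes had further summits within 50 kb, 12 in all. Tiles of 100 kb, as long as both flanks of a gene together, hold at least 1 summit in 23.4% of cases. The flanks held 12.0 summits per Mb, against 3.45 over the list, with a median height of 27.5 against the list's 24. These shares and densities are of unlike places. The flanks are separate stretches beside windows that all hold a summit, while tiles and the list's density cover places anywhere along the chromosomes. ASAP1 had 4 of the 12 summits, all on the high-coordinate side, and they included a pair of height 41 each, on chromosome 8 from 131509758 to 131510412 and from 131511340 to 131512111. With them the ASAP1 count rose from 7 to 11, and its tallest peaks lay outside the window. F3 had 3, with heights of 28, 31 and 33, all above its tallest peak inside, which was 27; the last of them ran over 1501 bp from 95107440 to 95108940 on chromosome 1. NUAK2 and CCDC80 had 2 each, with heights of 15 and 24 and of 27 and 25, well below their tallest peaks inside. GADD45A had 1, of height 34, which is 13.6 kb beyond the border and taller than the single peak of 19 inside. Whether these peaks act on the named genes or on others nearby was not tested.

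Distances to the next summit differed between the 2 sides of some windows. At CRIM1 it lay 842 kb beyond the low-coordinate border and 52.7 kb beyond the high-coordinate one. For DOCK5 these distances were 927 and 215 kb. On the low-coordinate side of NT5E the next summit was 208 kb away, and on the other side 1174 kb. For AXL it was 80.4 kb on the low-coordinate side and 623 kb on the high-coordinate side. The mappability of these stretches was not tested.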
